A study of Mus musculus with 2 samples.

Results

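The T-cell receptor (TCR) complex and its coreceptors were followed in mouse T cells by 10 genes chosen by name: the CD3 chains Cd3d, Cd3e, Cd3g and Cd247, the coreceptor chains Cd4, Cd8a and Cd8b1, the kinases Lck and Zap70, and the adaptor Lat. A probe set is the group of short oligonucleotides that reads out one transcript. Every probe set that the platform annotation assigned to exactly 1 of these genes was taken. This gave 19 probe sets for 9 of the 10 genes, out of 34945 single-gene probe sets for 18193 genes in all. No probe set was listed for Lck, which is not analysed here. The rule used gene names and no measured values.

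Retinal pigment epithelium (RPE) is the pigmented sheet of cells that underlies the photoreceptors. The study asked how it acts on T cells, in particular on helper T cells that make interleukin-17. It compared 2 samples with 1 Affymetrix expression array each. The control sample was titled as CD4 T cells and its source was given as control T cells. The other sample was labelled as T cells after exposure to RPE, although its tissue field named primary cultured RPE. Both came from male mice 6 weeks old on a C57 BL/6 background. The labels give no dose, duration, stimulus or purity, and do not say whether cells of several mice were pooled.

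The TCR alpha and beta chains bind peptide on MHC molecules but have almost no cytoplasmic part. Signalling is carried by the CD3 chains, encoded by Cd3d, Cd3e and Cd3g, and by the zeta chain, encoded by Cd247, whose tails bear tyrosine motifs known as ITAMs. CD4 binds MHC class II and CD8 binds MHC class I, and both bring the kinase Lck to the receptor. Lck phosphorylates the ITAMs, the kinase ZAP-70 docks on them, and ZAP-70 phosphorylates LAT, a membrane scaffold on which the downstream enzymes assemble. In mature T cells CD4 and CD8 mark different lineages, while the CD3 chains and ZAP-70 are shared by both.

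Values are deposited signals on a linear intensity scale, and differences are log2 of the exposed signal minus log2 of the control signal. Signals under the median of their array, 15.9 for control and 16 for exposed cells, were treated as a floor. All 9 genes measured had their brightest probe set above the floor on both arrays, as did 18 of the 19 probe sets. A group is 1 array, so neither a spread between samples nor a test exists, and this number of arrays sets the precision. Each difference is therefore set beside the like-level range, the central 95% of differences among genes in the same twentieth of mean signal, and beside the SD between probe sets of one gene. That SD, pooled over genes whose probe sets all lay in one signal band, was 0.32 under 100, 0.17 from 100 to 500 and 0.10 at 500 or more. It measures scatter within this pair of arrays and holds no variation between samples. Signals of different probe sets are not compared with each other as levels. Where a list sum is given, it adds the signals of all matched genes, those under the floor included, so the brightest probe sets weigh most.

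None of the 9 genes was 2-fold different between the samples, against 0.436% of all 11015 genes compared that were at least 2-fold higher and 0.626% that were at least 2-fold lower in exposed cells. At 1.5-fold the count was also 0 of 9 in each direction, against 3.11% of all genes higher and 3.81% lower. The differences of the 9 genes ran from -0.082 for Cd4 to 0.48 for Cd8b1, with 5 positive and 4 negative. Their median was 0.14, beside -0.0092 over all genes compared. The brightest genes on these arrays leaned slightly upward, with a median of 0.027 over the 1933 genes whose mean signal was 500 or more, a band that holds 8 of the 9.

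**Figure D1:**
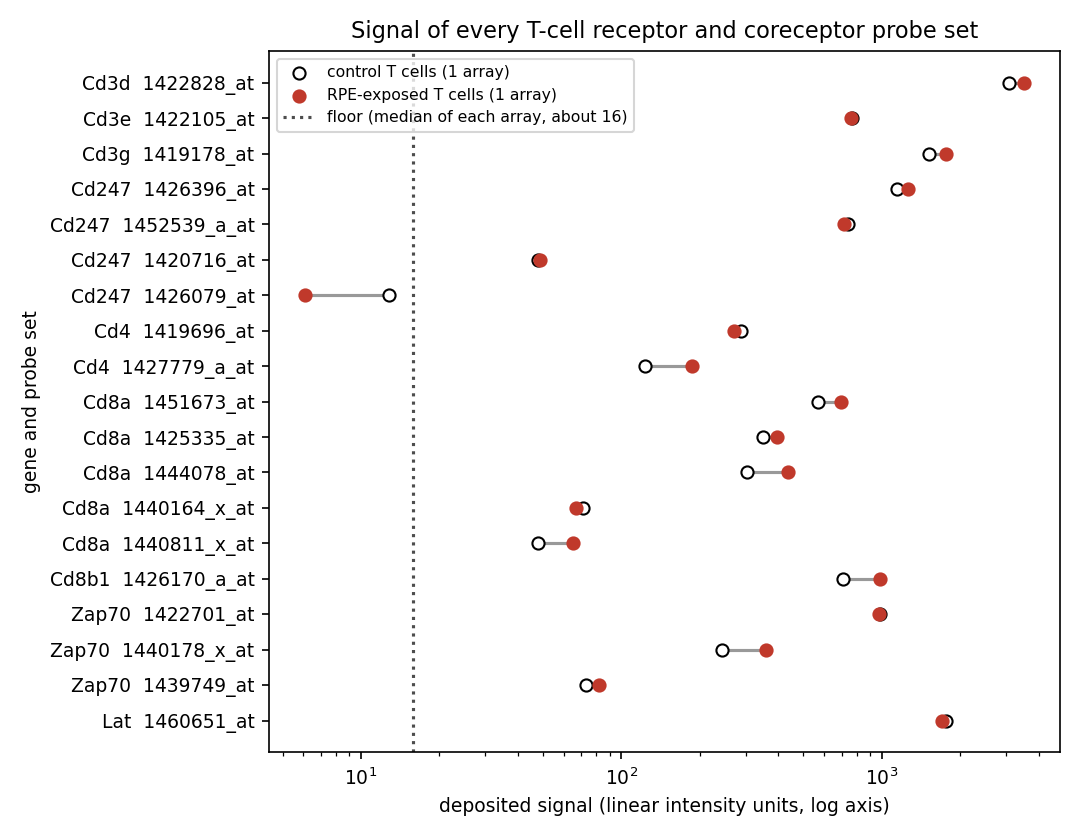
Deposited signal of each of the 19 probe sets (horizontal log axis, intensity units) in control T cells (open circles) and RPE-exposed T cells (red), 1 array each, with the floor as a dotted line. Most pairs of circles lie close together; the widest gaps above the floor belong to a Cd4, a Zap70, a Cd8a and the Cd8b1 probe set, each higher in exposed cells.

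The CD3 genes that pair with the receptor's alpha and beta chains differed by at most 1.16-fold between the samples. Cd3d, which encodes the delta chain, gave 3073.4 on the control array and 3505.9 on the exposed one, 1.14-fold higher (a log2 difference of 0.19, against a like-level range of -0.19 to 0.30, probe set 1422828_at). Cd3g, which encodes the gamma chain, had 1520.2 and 1756.7, 1.16-fold higher (0.21, like-level range -0.19 to 0.30, 1419178_at). Cd3e, which encodes the epsilon chain that pairs with both of the others, had 770.9 and 763.9, a difference of -0.013 (like-level range -0.44 to 0.51, 1422105_at). The gamma and delta genes thus shared a direction and a size, differing from each other by 0.019, while each stood 0.22 and 0.20 above epsilon. Each of these genes had 1 probe set, so no second measurement of the gene was at hand, and all 3 lay within their like-level ranges. Cd3d and Cd3g differed by more than the SD of 0.10 between probe sets of one gene at 500 or more, which holds no variation between samples. The median absolute difference over all genes above the floor on both arrays was 0.15.

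Cd3g, Cd3d and Cd3e lie side by side in this order on chromosome 9 in the mouse RefSeq annotation of assembly GRCm38.p6, and Cd8b1 and Cd8a are likewise next to each other on chromosome 6. Cd3g and Cd3d are read away from each other from neighbouring starts, whereas Cd3e is read toward Cd3d. To show what these neighbours hold there, the sequence before each start is given, from RefSeq, as far as it lies outside the gene's own span. Capitals mark the core letters bound by ETS-family factors, GGAA or its reverse complement TTCC.

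Cd3g, minus strand, chr9:44980432-44980681: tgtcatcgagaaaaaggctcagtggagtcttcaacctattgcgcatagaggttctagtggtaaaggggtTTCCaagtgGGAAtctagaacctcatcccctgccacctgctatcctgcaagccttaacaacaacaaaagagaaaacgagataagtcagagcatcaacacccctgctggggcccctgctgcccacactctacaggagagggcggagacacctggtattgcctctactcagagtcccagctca
Cd3d, plus strand, chr9:44981536-44981768: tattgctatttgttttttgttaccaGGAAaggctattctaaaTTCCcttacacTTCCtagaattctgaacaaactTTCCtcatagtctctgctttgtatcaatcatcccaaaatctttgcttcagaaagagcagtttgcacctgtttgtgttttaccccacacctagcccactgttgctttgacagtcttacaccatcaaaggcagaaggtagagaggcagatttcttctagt
Cd3e, minus strand, chr9:45009664-45009861: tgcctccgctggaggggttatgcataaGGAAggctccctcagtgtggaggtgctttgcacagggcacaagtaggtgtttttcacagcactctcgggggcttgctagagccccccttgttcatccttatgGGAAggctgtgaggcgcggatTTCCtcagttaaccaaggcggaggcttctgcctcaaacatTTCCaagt

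The Cd3g stretch of 250 bases held 2 ETS cores, the Cd3d stretch of 233 bases held 4, and the Cd3e stretch of 198 bases held 4. At least 1 such core stands in 93.4%, 92.1% and 89% of the 32851 RefSeq mouse promoter windows cut to the same lengths, so its presence sets these genes apart from few others. As many cores or more stand in 76.8%, 28.4% and 20% of those windows. The E-box letters CANNTG, which read alike on both strands, occurred 3 times before Cd3g, 1 time before Cd3d and 0 times before Cd3e. At least 1 E-box stands in 66.2%, 63.9% and 58.7% of the windows cut to these lengths. Of windows of 250 bases, 12.2% hold 3 or more. In Cd3g 1 of the E-boxes overlapped an ETS core. Over equal windows of 250 bases before each start, which for Cd3d and Cd3e reach into the gene's own span, the ETS cores numbered 2, 6 and 5 and the E-boxes 3, 1 and 1 for Cd3g, Cd3d and Cd3e. A match is a description of letters only. Promoter windows were listed for 7 of the 9 genes measured, not for Cd4 and Cd8b1.

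Cd247, the zeta chain gene, had 4 probe sets, and the 3 above the floor were nearly level between the samples. The brightest, 1426396_at, had 1143.2 in control and 1263.3 in exposed cells (0.14, like-level range -0.36 to 0.36). Probe set 1452539_a_at, whose ending in a marks probes shared by transcripts of one gene, had 739.8 and 713.5 (-0.052). The dim 1420716_at had 47.9 and 48.5 (0.018). These probe sets averaged 0.037 ± 0.099 (SD over 3 probe sets) and differed in sign. They span signal bands, with a pooled SD of 0.10 in the band of the brighter ones and 0.32 in that of the dim one. The remaining one, 1426079_at, had 12.8 and 6.1, under the floor on both arrays, and gave no difference. Across the CD3 and zeta genes 6 probe sets were above the floor, 4 of them higher and 2 lower in exposed cells, with differences from -0.052 to 0.21.

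Read by the brightest probe set of each gene, the CD8 chain genes showed the largest differences of the group. Cd8b1, which encodes the CD8 beta chain, had 706.4 in control cells and 983.9 after exposure, 1.39-fold higher (0.48, probe set 1426170_a_at). It was the only one of the 9 genes outside its like-level range, here -0.36 to 0.36, against 2.53% of all genes compared above and 2.46% below theirs. Its signal lay near the lower edge of its twentieth, however, and it would have been inside the range of the next dimmer twentieth, -0.44 to 0.51. The difference also exceeded the SD of 0.10 between bright probe sets of one gene, but that SD holds no variation between samples. No second probe set of Cd8b1 was listed.

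Cd8a, which encodes the alpha chain common to both forms of CD8, had 5 probe sets, all above the floor, and 4 were higher in exposed cells. The brightest, 1451673_at, had 568.8 in control and 694.6 in exposed cells, 1.22-fold higher (0.29, like-level range -0.44 to 0.51). Probe set 1425335_at had 350.3 and 395.7 (0.18). Probe set 1444078_at had 304.5 and 436.0 (0.52), above its like-level range, which ended at 0.44. The dim ones with names ending in x, which marks probes that can match other sequences, disagreed: 1440811_x_at had 47.8 and 65.4 (0.45), and 1440164_x_at had 71.1 and 66.7 (-0.092). The mean over all 5 was 0.27 ± 0.24 (SD), so the probe sets were spread about as widely as their mean lay from 0. Signals for both CD8 chains were well above the floor on the control array, the one titled as CD4 T cells.

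Cd4, which encodes the coreceptor for MHC class II, had 2 probe sets that disagreed. The brighter, 1419696_at, had 287.0 in control and 271.1 in exposed cells, 1.06-fold lower (-0.082, like-level range -0.48 to 0.43). The dimmer, 1427779_a_at, had 123.6 and 186.7, 1.51-fold higher (0.60, above its like-level range, which ended at 0.53). Their mean was 0.26 ± 0.48 (SD), the widest spread between probe sets of any gene in the group, and no direction for Cd4 can be given from them.

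Against Cd4, measured by the brightest probe set of each, Cd8b1 shifted by 0.56 and Cd8a by 0.37 toward exposed cells. With all probe sets of a gene averaged, these became 0.22 and 0.012. The shift of Cd8a relative to Cd4 therefore rested on which Cd4 probe set was read. Only Cd4 changed sign between these readings, and Cd8a gave 0.29 and 0.27.

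The kinase and the scaffold downstream were level by their brightest probe sets. Zap70 had 981.9 in control and 976.4 in exposed cells (-0.0081, like-level range -0.36 to 0.36, 1422701_at). A probe set ending in x, 1440178_x_at, had 243.5 and 359.1, 1.47-fold higher (0.56, above its range, which ended at 0.41), and the dim 1439749_at had 72.8 and 81.7 (0.17). The mean over the 3 was 0.24 ± 0.29 (SD), so the brightest probe set alone puts Zap70 at no difference. Lat, which encodes the scaffold, had 1760.9 and 1707.8, 1.03-fold lower (-0.044, like-level range -0.19 to 0.30, 1460651_at), on its only probe set.

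**Figure D2:**
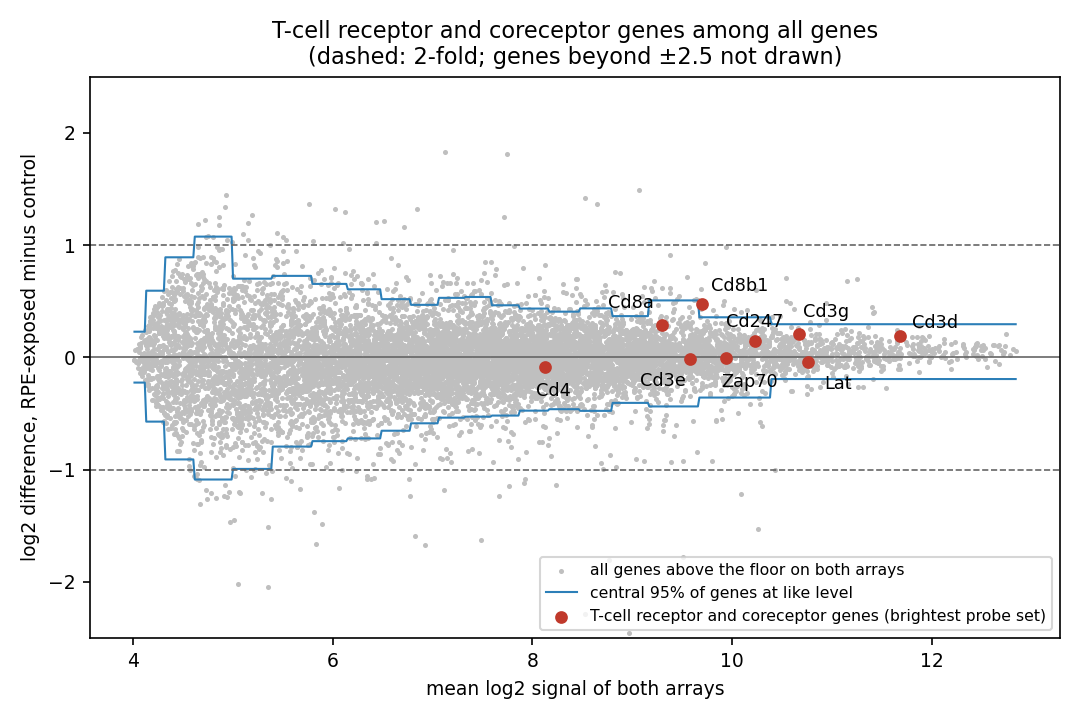
Log2 difference (RPE-exposed minus control) against mean log2 signal for all genes above the floor on both arrays (grey) and for the 9 receptor and coreceptor genes (red), 1 value per gene from 1 array per group, with the like-level range as blue steps. Cd8b1 lies just above the blue line, at 0.48, and the other 8 lie inside it.

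Agreement between probe sets was therefore limited. In all 4 genes with several probe sets above the floor (Cd247, Cd4, Cd8a and Zap70), the probe sets differed in sign, as they did in 49% of the 4779 genes of the whole table with several. That share was not matched for the number of probe sets per gene, and more probe sets leave more room for mixed signs. Among the 18 probe sets above the floor, 12 were higher and 6 lower in exposed cells. A single one passed 1.5-fold, that of Cd4 at 1.51-fold higher, against 2.9% of all such probe sets higher by that much and 3.6% lower. The 4 outside their like-level ranges, 1 each for Cd4, Cd8a, Cd8b1 and Zap70, were all higher, against 2.38% of all such probe sets above and 2.13% below.

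**Figure D3:**
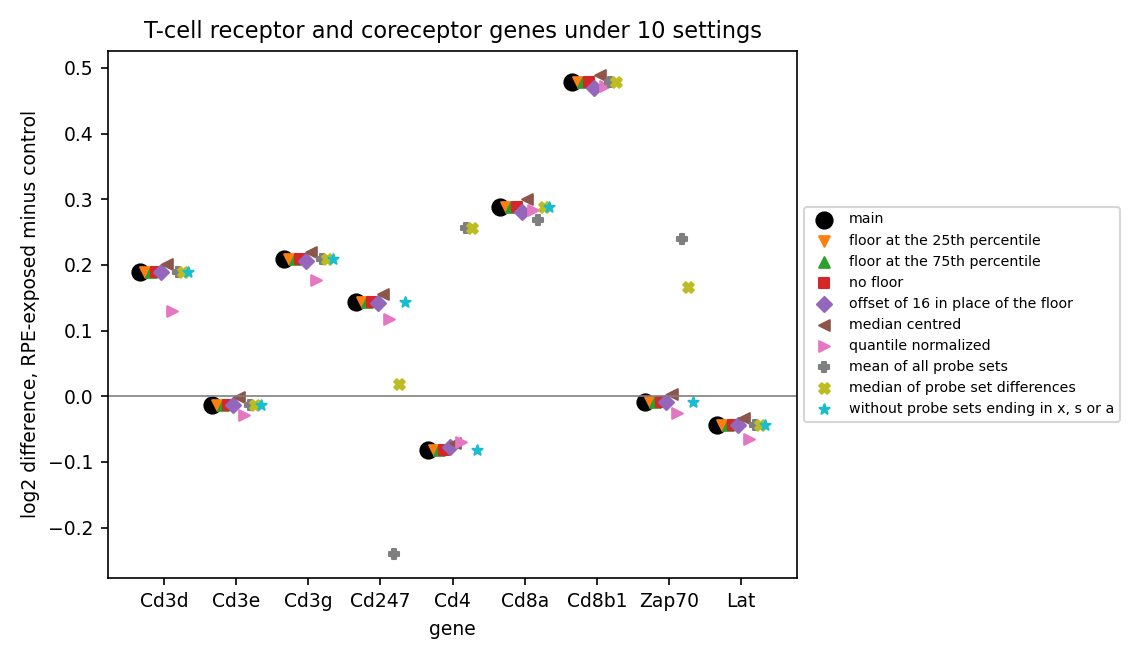
Log2 difference of each gene under the main setting (black) and 9 alternatives of floor, offset, scaling and probe set choice (coloured), 1 array per group. Cd3d, Cd3e, Cd3g, Cd8a, Cd8b1 and Lat keep their sign throughout, while Cd4, Zap70 and Cd247 move most when probe sets of a gene are combined and each crosses 0 in at least 1 setting.

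Other chains that carry or could carry receptor signals were compared next. Of 12 names listed, 6 had a probe set and 4 were above the floor, all lower in exposed cells, with a median of -0.51. Trat1, which encodes a transmembrane adaptor of the TCR complex, had 48.8 in control and 34.3 in exposed cells (-0.51), and its 2 probe sets averaged -0.33 ± 0.26 (SD). The ITAM adaptor genes Fcer1g (132.4 and 93.2, -0.51) and Tyrobp (136.1 and 79.0, -0.78), which myeloid and natural killer (NK) cells use, were also lower, Tyrobp under its like-level range of -0.65 to 0.52. Hcst, which encodes an adaptor of NKG2D, had 202.3 and 162.5 (-0.32). A probe set of the receptor alpha locus, Tcra, had 6.5 and 0.2, and that of Ptcra, the pre-TCR alpha gene of immature thymocytes, 12.1 and 3.6, all under the floor. The other receptor constant-region genes of the list were not matched and are not analysed here. None of the 4 genes above the floor reached 2-fold, and those other than Tyrobp lay within their like-level ranges. Tyrobp is counted again below among NK-cell genes and Fcer1g among macrophage and dendritic-cell genes, so those lists are not separate observations of them.

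Genes that transmit the receptor signal were balanced. Of 31 listed, 27 were above the floor on both arrays, 16 higher and 11 lower, none by 1.5-fold, with a median of 0.044. The 16 include Pdk1 (680.5 and 741.7, 0.12), a symbol that names a pyruvate dehydrogenase kinase and not a receptor signalling gene. Themis, a T-cell signalling protein that binds LAT's partner GRB2, had 367.4 in control and 548.7 in exposed cells (0.58, like-level range -0.41 to 0.37), and its 4 probe sets agreed at 0.61 ± 0.075 (SD). Next highest were Grap2, whose product links LAT to further adaptors (32.9 and 45.8, 0.48) and the protein kinase C gene Prkcq (516.0 and 651.3, 0.34). At the other end, Rasgrp1, which activates Ras after LAT is phosphorylated, had 476.0 and 325.0 (-0.55, under its range of -0.48 to 0.44), with 4 probe sets at -0.46 ± 0.24 (SD). The exchange factor Vav1 (218.7 and 168.9, -0.37) and the NF-kappaB pathway protease Malt1 (819.2 and 636.9, -0.36) followed. Themis and Rasgrp1 thus differed in opposite directions in a list whose middle barely moved.

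Genes that restrain the receptor were balanced too, with 13 of 23 higher, 10 lower and a median of 0.032. Lax1, which encodes a LAT-like adaptor that dampens signalling, had 62.0 and 98.3, 1.59-fold higher (0.66, above its range, which ended at 0.61), on 1 dim probe set. The phosphatase-like gene Ubash3a (202.8 and 272.3, 0.43) and the adaptor Sla2 (158.7 and 188.8, 0.25) came next. The 2 probe sets of Ubash3a averaged 0.19 ± 0.33 (SD), a spread wider than their mean. The lowest were the docking protein gene Dok1 (123.4 and 85.2, -0.53), the adaptor Sh2b3 (121.0 and 84.0, -0.53) and the feedback inhibitor Spry1 (113.1 and 81.3, -0.48). Of these named genes Lax1 alone lay outside its like-level range. Outside the naming rule, and named after its value was seen, the phosphatase gene Ptpn2 (1935.6 and 1545.4, -0.32) lay under its range of -0.19 to 0.30, with 3 probe sets at -0.30 ± 0.22 (SD).

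Accessory T-cell surface molecules, a list that also holds the inhibitory receptor gene Ctla4 (0.046), had 8 of 13 genes higher and a median of 0.11. Cd28, the main costimulatory receptor, had 1658.9 and 2319.2, 1.40-fold higher (0.48, like-level range -0.19 to 0.30), and its 2 probe sets averaged 0.36 ± 0.17 (SD). Cd96, a receptor of T and NK cells (192.6 and 264.4, 0.46) and Spn, which encodes the leukocyte sialoglycoprotein CD43 (439.4 and 517.6, 0.24), were the next highest. Slamf1, a receptor of the SLAM family, had 696.8 and 477.5 (-0.55, under its range of -0.44 to 0.51), with 3 probe sets at -0.72 ± 0.19 (SD). Cd48 (1747.5 and 1624.9, -0.10) and Cd2 (2329.9 and 2212.2, -0.075) were close to level.

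Transcription factors that set the CD4 or CD8 lineage had a median of 0.031, with 8 of 15 higher. Runx3, which silences Cd4 in the CD8 lineage, had 486.1 and 608.6 (0.32, within its range of -0.41 to 0.37), and its 2 probe sets averaged 0.47 ± 0.21 (SD). Myb (428.3 and 530.1, 0.31) and Lef1 (655.0 and 791.4, 0.27), factors of thymocyte development, were the next highest. Gata3, which favours the CD4 lineage and type 2 helper cells, had 290.4 and 166.6, 1.74-fold lower. Its difference of -0.80, on 1 probe set, lay under its range of -0.52 to 0.46. Ets1, an ETS-family factor, had 2793.4 and 2329.6 (-0.26, under its range of -0.19 to 0.30), and its 4 probe sets averaged -0.26 ± 0.23 (SD). Runx1 had 50.8 and 45.8 (-0.15).

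**Figure D4:**
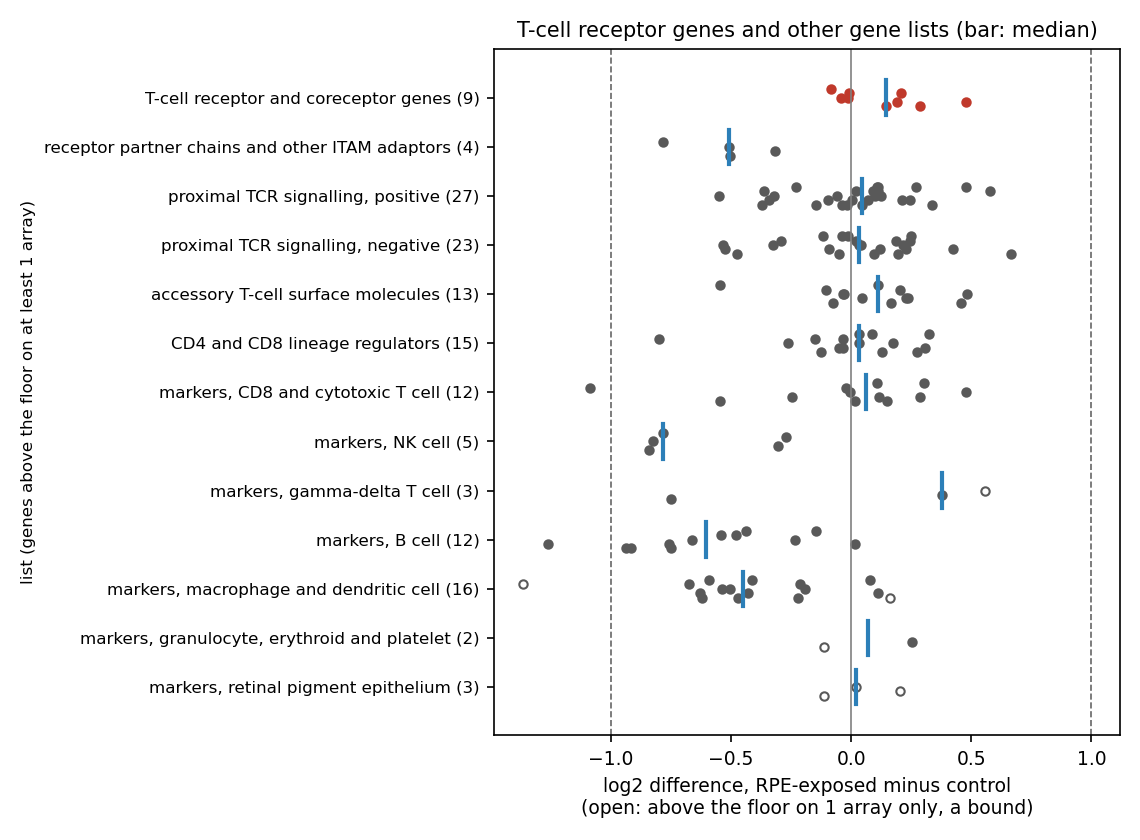
Log2 difference of each gene (points; open where only 1 array was above the floor) in the receptor and coreceptor group (red) and 12 other lists, with the median of each list as a blue bar and 2-fold as dashed lines, 1 array per group. The receptor group and the TCR signalling lists centre near 0, and the B-cell, macrophage and NK-cell lists centre below it.

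Markers of other cells that hold CD3, CD4 or CD8 transcripts, or none, were read beside these values. In samples of mixed cells a lower signal can come from fewer cells of a type or from less RNA per cell, which cannot be told apart here. Of the 12 genes of CD8 and cytotoxic T cells, all were above the floor, 7 higher and 5 lower, with a median of 0.062 and summed signals of 13435.7 in control and 14627.8 in exposed cells. Among them Gzmb, a granule protease, had 5632.9 and 6096.3 (0.11) and Gzma 3714.7 and 4122.5 (0.15). Gzmb and Gzma made up most of both sums. Nkg7 had 1005.2 and 1016.3 (0.016) and the pore-forming protein gene Prf1 428.1 and 360.6 (-0.25). Crtam, named after its value was seen, was the only gene of this list past 2-fold, at 118.3 and 55.7 (-1.09). Cd8a (0.29) and Cd8b1 (0.48) are themselves among the 7 higher genes of this list. Whether a share of CD8 cells has a part in the Cd8a and Cd8b1 values was not tested.

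Antigen-presenting cell genes, some of whose cells also carry Cd4 or Cd8a, were lower in exposed cells. Of 14 B-cell genes listed, 12 were above the floor, 11 lower and 1 higher (median -0.60), with summed signals of 2638.1 and 1704.9. Under their like-level ranges lay 6 of the 12 and above them 0, against 2.46% and 2.53% of all genes compared. Vpreb3, named after its value was seen, was the only B-cell gene past 2-fold, at 64.4 and 26.8 (-1.26). Ms4a1 had 618.5 and 443.6, Pou2af1 572.0 and 298.6, Cd79b 320.2 and 236.2, and Cd79a 139.3 and 95.6. Of 19 macrophage and dendritic-cell genes, 16 were above the floor, 13 lower and 3 higher (median -0.45), with sums of 4679.7 and 3550.3. Here 5 of the 16 lay under their like-level ranges and 0 above. Lyz1, also named after its value was seen, cleared the floor on the control array alone (41.3 and 7.5, at least 2.58-fold lower). Class II genes, H2-Aa (1437.6 and 1080.8), H2-Eb1 (707.7 and 457.1) and H2-Ab1 (481.7 and 312.8) and the class II chaperone Cd74 (1448.2 and 1250.3) were each lower. They made up most of the macrophage and dendritic-cell sums and are expressed by B cells as well. The myeloid receptor gene Csf1r (29.1 and 31.4) and the dendritic-cell integrin Itgax (19.4 and 17.0) were barely above the floor in both samples. These sums moved down while the receptor group's sum was 10812.7 and 11923.6, and their part in the receptor values was not tested.

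Of 10 NK-cell gene names, 6 were matched and 5 were above the floor, all lower (median -0.78), with sums of 302.8 and 194.4. Tyrobp, Klre1 (68.7 and 38.8) and Klra8 (31.9 and 25.8) were the brightest, and Ncr1, the defining receptor, had 21.5 and 17.8. Genes of gamma-delta T cells, which share the CD3 chains, had 3 of 8 matched. Cd163l1 had 21.6 and 28.1, Blk, also a B-cell gene, 83.7 and 49.7, and Sox13 cleared the floor on the exposed array alone (8.5 and 23.4, at least 1.47-fold higher). Summed signals of these were 113.8 and 101.2, and Trdc was not matched. The genes of the NK-cell list were thus lower at dim signals, with 2 of the 5, Tyrobp and Klre1, under their like-level ranges. Klrd1 (600.1 and 590.6, -0.023) and Klrk1 (373.5 and 460.6, 0.30), counted in the CD8 and cytotoxic list, are receptor genes of NK cells too. Gamma-delta genes showed no shared direction.

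RPE genes were mostly under the floor. Of 18 listed, 15 were under the floor on both arrays, Rpe65 (5.3 and 2.3) and Rlbp1 (7.0 and 7.5) among them, and the brightest, Mitf (17.3 and 15.2), Pmel (15.2 and 18.3) and Rdh5 (12.7 and 16.1), lay at the floor, with list sums of 141.8 and 121.9. The sample whose tissue field named cultured RPE thus had signals above the floor for every CD3 gene and for Zap70. Of the RPE markers only Pmel (18.3) and Rdh5 (16.1) cleared its floor of 16, and no RPE marker was above the floor on both arrays. Granulocyte, erythroid and platelet genes had 6 of 8 under the floor, S100a8 (9.3 and 7.7) included, with Pf4 at 44.7 and 53.3, Elane at 17.3 and 12.4, and sums of 80.9 and 105.5. Hbb-b1 was not matched.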

How the data were processed

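The authors deposited 1 table of intensities, linear signals per probe set for each of 2 arrays (45101 probe sets, 64 of them manufacturer's controls). Biotin-labelled cRNA from total RNA was hybridised, per the labels' protocols. The sources used here do not name the summarization software. The mean without the lowest and highest 2% was 100 on both arrays, so the deposited intensities already shared a scale and were used as they stood. Gene names came from the platform annotation. Probe sets naming several genes (932) or none were left out. Of 34945 probe sets naming 1 gene, 34741 were found in RefSeq by gene identifier, and no symbol was updated.

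Each gene was read from its brightest probe set by mean log2 signal. Signals under the floor were set to it, and a signal equal to the floor counted as above it. Of 18193 genes, 10011 were above it on both arrays and 1004 on 1. Differences were counted at 2-fold and 1.5-fold. Like-level ranges used 20 bins of mean signal. Where 1 array alone cleared the floor, the fold is a lower bound. Python 3.11.15, numpy 2.4.6, pandas 2.3.3 and matplotlib 3.10.9 were used, and the steps were tested on simulated data. The genes, lists and 9 alternatives were chosen with earlier results of these data known. The text names every member and receptor partner chain, the 3 highest and 3 lowest of each signalling, surface and lineage list, and the 3 brightest and the defining genes of each marker list. Members of the other lists not matched by symbol are not analysed here.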

Additional observations from a re-analysis of the deposited data

How the results depend on the processing

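No paired analysis was possible because each group had 1 array, and for the same reason no replicate could be left out. Under all 9 alternatives 0 of the measured receptor genes was 2-fold different, and their median ran from 0.068 to 0.21. Cd3d, Cd3e, Cd3g, Cd8a and Lat kept their direction in 9 of 9 alternatives and Cd8b1 in 8 of 8, since it has no probe set left once those ending in x, s or a are dropped. Combining probe sets moved 3 genes. Averaged, Cd247 gave -0.24 (its probe set under the floor included), Cd4 0.26 and Zap70 0.24, and with the median of probe set differences they gave 0.018, 0.26 and 0.17. The shift of Cd8a against Cd4 fell from 0.37 to 0.012 and 0.032 in these same settings, and that of Cd8b1 from 0.56 to 0.22 in both. Zap70 also turned positive by under 0.01 with median centring. The background depended on the floor: 658 genes were 2-fold higher and 577 lower with it at the 25th percentile, 6 and 16 at the 75th, and 1730 and 1583 with none, against 48 and 69. An offset of 16 gave 38 lower. The median of the NK-cell list ran from -0.78 to -0.53 and was negative in 9 of 9 alternatives.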
